A study of Citrus sinensis and Citrus x aurantiifolia and Citrus x latifolia with 53 samples.

Results

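Leaves of Mexican lime trees deprived of water were compared between trees grafted on a tetraploid and trees grafted on a diploid rootstock, to ask whether the ploidy below the graft was reflected in the leaf transcriptome. The members were the 8 leaf libraries labelled as Mexican lime under water deficit, 4 from trees on the tetraploid (4x) rootstock and 4 from trees on the diploid (2x) one, out of 53 leaf and root libraries in all. They were chosen by their labels and not by any measured value.

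The study grafted diploid Mexican lime (ML, Citrus aurantiifolia) and triploid Persian lime (PL, Citrus latifolia) on Swingle citrumelo, in its diploid form or as the corresponding tetraploid. ML4x denotes Mexican lime on the tetraploid and ML2x Mexican lime on the diploid, and PL4x and PL2x are the corresponding Persian lime trees. The design had 3 irrigated control trees (Ctrl) and 4 water-deficit trees (WD), left 9 days without irrigation, in each combination, all after 2 years in pots of 40 L in a greenhouse. Leaves and roots were collected from each tree at the end, and poly(A) RNA was sequenced. Besides the 8 libraries, 6 of irrigated Mexican lime leaves (3 on each rootstock) served as the background, and 7 of droughted Persian lime leaves (4 on 4x, 3 on 2x) as the same contrast under the other scion. Irrigated Persian lime leaves, used below to define gene lists and a scale, were represented by 3 libraries on 4x and 2 on 2x. A single rootstock variety was used, so the ploidy contrast rests on that variety alone.

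In a grafted tree the scion supplies the leaves and fruit and the rootstock supplies the roots. All Mexican lime leaves compared here therefore carry the same scion genotype, and a rootstock can reach them only through what crosses the graft, namely water, minerals, hormones and mobile molecules. In drying soil, leaves accumulate abscisic acid, close their stomata, lower photosynthesis and turn on genes that protect cells against dehydration. Autotetraploid citrus rootstocks have been studied as a way to delay or soften these changes.

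The deposited counts were keyed by 24533 gene identifiers, and 0 of them could be paired with a gene name in the annotation at hand. Genes are therefore given by identifier, no function is assigned to any of them, and the cell types of the leaf could not be checked by their markers. In bulk leaf RNA, fewer cells of a type and less RNA per cell cannot be told apart. Total counts ran from 4785434 in ML2x WD 3 to 28246404 in ML2x WD 4, and from 12386171 in ML4x WD 2 to 54838385 in ML4x WD 3. A library of each scion stood near its irrigated controls, ML4x WD 1 and PL2x WD 1. Of 19140 genes tested, 1320 in ML4x WD 1 lay more than 1 log2 unit from the mean of the Mexican lime controls, and 2740 in PL2x WD 1 from the mean of the Persian lime ones. In the other droughted libraries that number was 3177 to 7110 in Mexican lime and 5203 to 7905 in Persian lime.

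By edgeR no gene passed the test between the rootstocks in droughted Mexican lime leaves. The quasi-likelihood test with Benjamini-Hochberg adjustment called 0 of 19140 genes (0%), with a smallest adjusted p of 0.587. At an unadjusted p under 0.05 there were 1374 genes (7.18%), 502 higher on the tetraploid rootstock (2.62%) and 872 lower (4.56%). DESeq2 called 7 genes, all lower on the tetraploid, and limma's voom with quality weights called 0. Fitted differences were mostly small, with a median size of 0.27 on the log2 scale against a median standard error of 0.33. They exceeded 2-fold in 848 genes higher (4.43%) and 917 lower (4.79%) on the tetraploid.

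The same contrast in irrigated leaves, made on 3 libraries of each rootstock, also called 0 genes by edgeR (0%), with 166 below 0.05 before adjustment (0.867%), and neither DESeq2 nor voom called any (0 and 0). The test of whether the rootstock difference under water deficit departed from that under irrigation called 0 genes as well (0%), with 623 at an unadjusted p under 0.05 and 0 by either other tool. The larger unadjusted count under water deficit is therefore not shown to be a change with treatment at the level of single genes.

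The 2 genes of smallest p in each direction, none of them called by edgeR, show what the contrast looked like tree by tree. CPM are counts scaled to the library total after its adjustment by the TMM factor, edgeR's normalisation between libraries. Ciclev10008044m.g stood at 26.4, 54.0, 71.8 and 48.1 CPM in ML2x WD 1 to 4 and at 14.9, 16.0, 17.6 and 19.3 CPM in ML4x WD 1 to 4. Every diploid-rootstock tree was above every tetraploid-rootstock one, and the tetraploid-rootstock trees lay near the irrigated levels of 19.1 ± 2.48 CPM (ML2x) and 20.0 ± 0.988 CPM (ML4x; SD, n = 3). The fitted difference was -1.56 ± 0.33 on the log2 scale (SE; edgeR adjusted p = 0.587, DESeq2 adjusted p = 0.0176). In roots of the droughted trees the same gene was at 10.4 ± 3.04 CPM on the diploid and 13.2 ± 7.46 CPM on the tetraploid (SD, n = 4).

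Ciclev10005230m.g was at 5.51, 2.63, 18.6 and 19.4 CPM in ML2x WD 1 to 4 and at 2.23, 2.27, 4.24 and 2.14 CPM in ML4x WD 1 to 4. Its high values came from ML2x WD 3 and 4 and the groups overlapped, since ML2x WD 2 fell among the tetraploid-rootstock trees. The difference was -2.06 ± 0.46 (log2, SE; edgeR adjusted p = 0.587, DESeq2 adjusted p = 0.0193).

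On the higher side, Ciclev10004332m.g was at 60.1, 35.2, 37.1 and 44.6 CPM in ML2x WD 1 to 4 and at 100.2, 65.2, 58.8 and 79.5 CPM in ML4x WD 1 to 4. The groups overlapped by a narrow margin, ML2x WD 1 lying above ML4x WD 3. Irrigated leaves held 112 ± 3.56 CPM (ML2x) and 99.8 ± 4.3 CPM (ML4x; SD, n = 3), so that 7 of the 8 droughted libraries stood below every irrigated one and ML4x WD 1 stood within their range. The difference was 0.78 ± 0.21 (log2, SE; edgeR adjusted p = 0.587).

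Ciclev10025446m.g was at 3.14, 2.30, 1.45 and 2.42 CPM in ML2x WD 1 to 4 and at 104.7, 1.70, 11.7 and 7.53 CPM in ML4x WD 1 to 4. ML4x WD 1 set its fitted difference of 3.71 ± 1.02 (log2, SE; edgeR adjusted p = 0.587), which was 1.56 without that library. Irrigated leaves held 29.3 ± 17.8 CPM (ML2x) and 26.9 ± 7.33 CPM (ML4x; SD, n = 3), and ML4x WD 2 lay within the range of the diploid-rootstock trees.

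**Figure D1:**
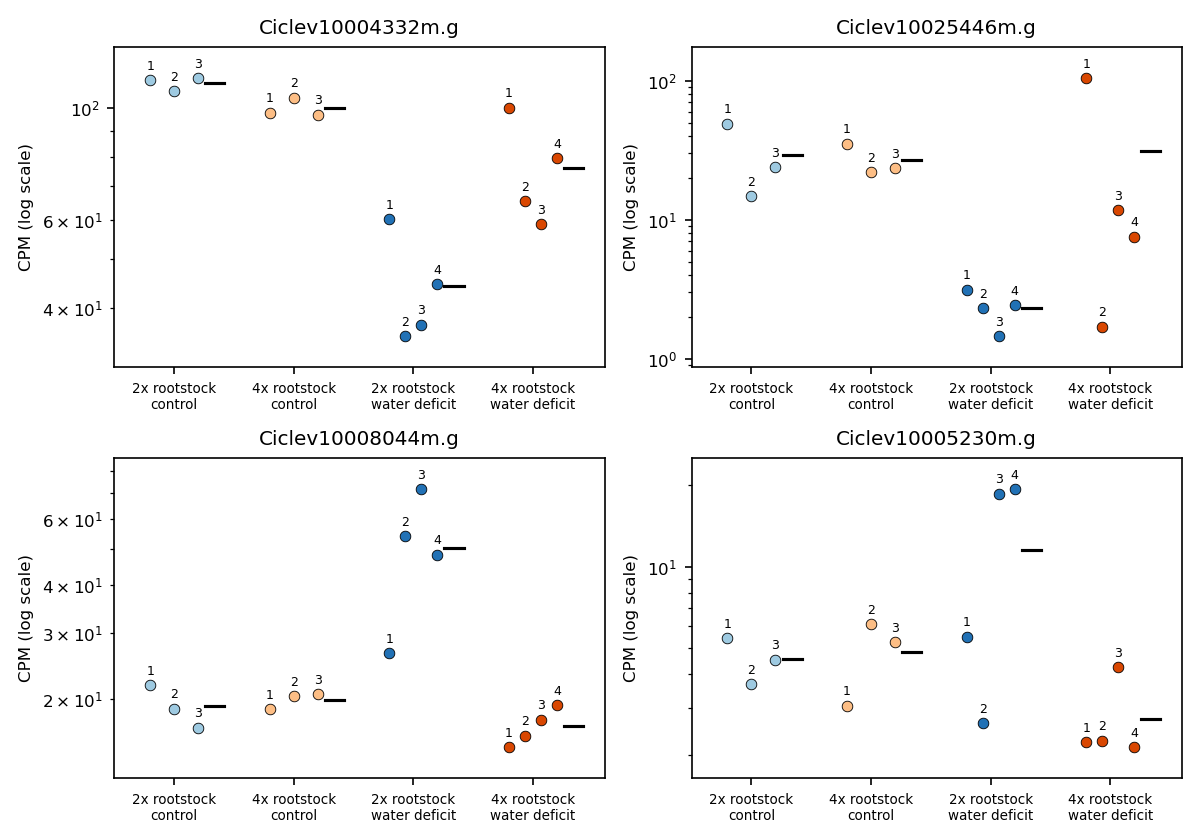
CPM (log scale) of the 4 genes in irrigated and droughted Mexican lime leaves, 1 point for each library with its replicate number and a bar at the group mean. The diploid-rootstock water-deficit trees stand apart from the other groups for Ciclev10008044m.g, while for Ciclev10025446m.g ML4x WD 1 lies alone at 104.7 CPM.

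Across the genome, 577 genes (3.01%) had all 4 libraries of one rootstock above all 4 of the other. Of these, 314 were higher on the tetraploid (1.64%) and 263 lower (1.37%), and neither count is read as a difference between the rootstocks. Over all genes, the group mean on the tetraploid rootstock lay nearer to the irrigated controls than that on the diploid for 12628 of 19140 (66%). Counting genes more than 1 log2 unit from the control mean, the average of the diploid-rootstock trees had 4128 and that of the tetraploid-rootstock trees 2275. The tetraploid average included ML4x WD 1, near the controls, and the diploid average included ML2x WD 3, which had the fewest counts. Neither these numbers nor the share of 66% were taken without those libraries, so the part of those libraries was not tested.

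The trees of a group varied in how far they had moved. By library, 3414, 5157, 7110 and 5094 genes lay more than 1 log2 unit from the control mean in ML2x WD 1 to 4, and 1320, 3177, 4510 and 4307 in ML4x WD 1 to 4. The groups overlapped, because ML2x WD 1 fell below ML4x WD 3 and 4. ML2x WD 3, which had the most such genes, was also the library of fewest counts, and the part of depth in that number was not tested. Correlations of log2 CPM between libraries had a median of 0.936 within ML2x WD, 0.954 within ML4x WD and 0.942 between them, so that libraries of different rootstocks were about as alike as libraries of the same one. Within each irrigated group the median was at least 0.975.

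**Figure D2:**
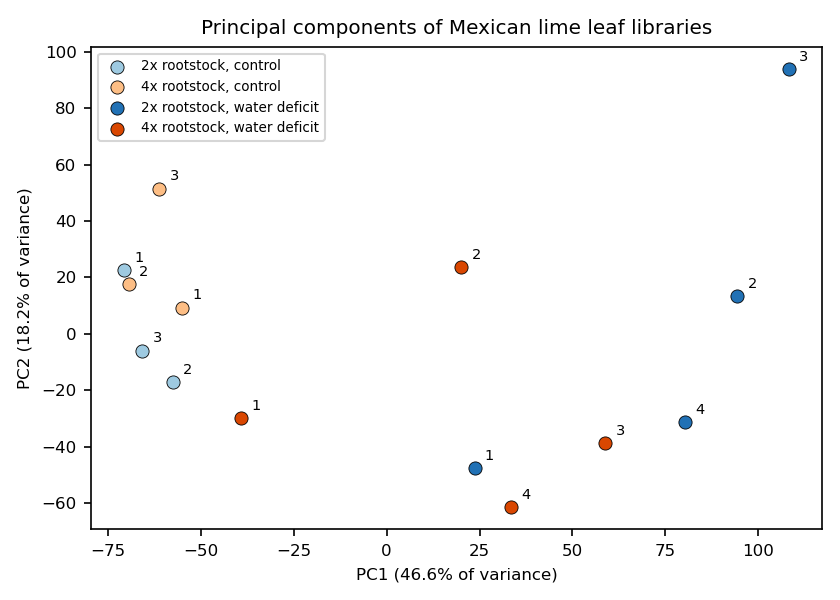
Scores of the 14 Mexican lime leaf libraries on the first and second principal components of log2 CPM, in arbitrary units, coloured by rootstock and treatment and marked with replicate numbers. The irrigated libraries lie together at the left, ML4x WD 1 lies closest to them, and along the first component (46.6% of the variance) ML2x WD 1 falls among the ML4x WD libraries while ML2x WD 2, 3 and 4 lie beyond all of them.

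To place each tree on a common scale, a water-deficit score was taken along the mean change from irrigated to droughted Persian lime leaves, with 0% at the mean of the Mexican lime controls and 100% at the full Persian lime change. No Mexican lime library entered the axis. The score was 59.1, 72.9, 46.8 and 81.7% in ML2x WD 1 to 4 and 26.6, 22.8, 72.0 and 65.8% in ML4x WD 1 to 4. ML4x WD 1 and 2 were the lowest of the 8, whereas ML4x WD 3 and 4 lay within the range of the diploid-rootstock trees. The means were 65.1 ± 15.3% and 46.8 ± 25.7% (SD, n = 4), a difference of -18.4 points that did not pass an exact two-sided permutation test (p = 0.257, adjusted p = 0.343 over 4 tests; 70 splits, smallest possible p 0.0286). In irrigated leaves the same difference was -7.57 points.

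The 10 genes most abundant in irrigated Persian lime leaves gave a second scale. They took 5.91, 4.51, 3.96 and 3.30% of the counts in ML2x WD 1 to 4 and 11.3, 8.21, 4.99 and 5.37% in ML4x WD 1 to 4, against 10.6 to 12.9% in the 6 irrigated libraries. ML4x WD 1 was within the irrigated range, and ML4x WD 3 and 4 lay below ML2x WD 1. The means were 4.42 ± 1.11% and 7.48 ± 2.94% (SD, n = 4), and the difference of 3.06 points did not pass the exact two-sided permutation test (p = 0.114, adjusted p = 0.343).

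**Figure D3:**
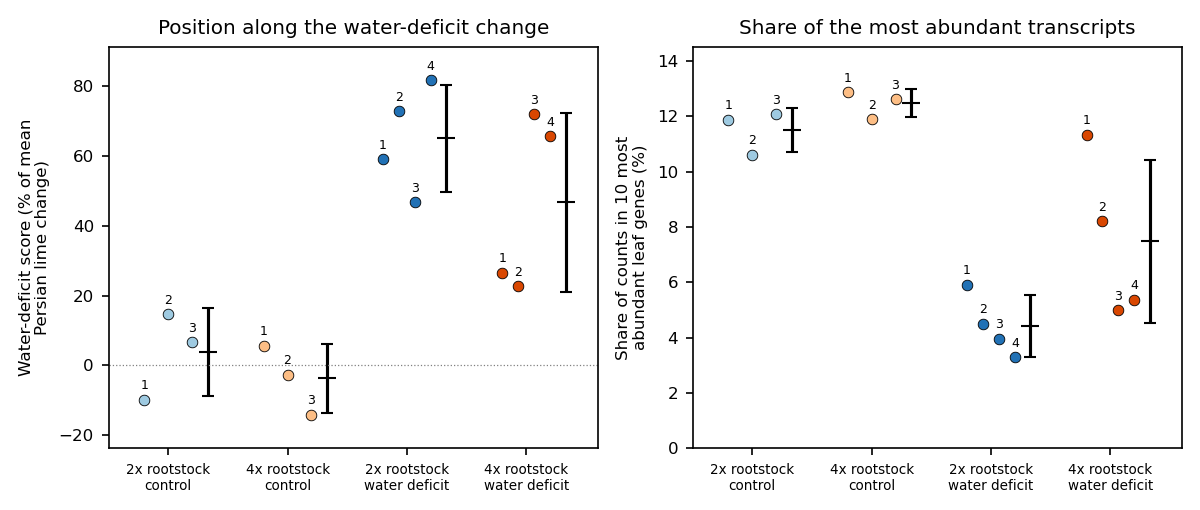
Left, the water-deficit score of each Mexican lime leaf library in % of the mean Persian lime change; right, the share of counts in the 10 most abundant leaf genes in %. Points are libraries with replicate numbers, and bars give the mean and SD of the group. ML4x WD 1 and 2 have the lowest scores of the 8 droughted libraries, at 26.6 and 22.8%, and the 2 groups overlap in both panels.

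Trees on one rootstock were not shown to be more alike than those on the other. The mean distance of a library from the other libraries of its group was 0.835 log2 units in ML2x WD and 0.667 in ML4x WD (difference -0.168, exact two-sided permutation p = 0.457, adjusted p = 0.457). Of the variation in log2 CPM among the 8 libraries, 18.8% lay between rootstocks (exact one-sided permutation p = 0.2, adjusted p = 0.343). The typical gene had an SD of 0.45 log2 units in ML2x WD and 0.38 in ML4x WD, against 0.22 and 0.25 in the irrigated groups.

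Gene lists drawn from other libraries show which parts of the leaf transcriptome lay higher or lower. The 1391 genes that were at least 2-fold lower in droughted than in irrigated Persian lime leaves had a median log2 difference of 0.43 between ML4x and ML2x WD, with 1090 higher on the tetraploid (78.4%) and 299 lower. Over all 19140 genes the median was 0.02, with 51.8% higher. By library, the list's median stood at -0.94, -1.20, -1.14 and -1.46 relative to the Mexican lime controls (log2) in ML2x WD 1 to 4 and at -0.41, -0.41, -1.24 and -1.08 in ML4x WD 1 to 4. The smaller drop came from ML4x WD 1 and 2, and ML4x WD 3 and 4 were within the diploid-rootstock range. Without ML4x WD 1 the median difference was 0.28. None of the 1391 was called, and at an unadjusted p under 0.05 there were 127 higher (9.13%) and 6 lower (0.431%), against 2.62% and 4.56% of all genes.

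The 2079 genes at least 2-fold higher in droughted Persian lime leaves had a median log2 difference of -0.08, with 898 higher on the tetraploid (43.2%) and 1181 lower (56.8%). Larger differences lay mostly on one side, with 12 genes over 2-fold higher (0.577%) and 252 over 2-fold lower (12.1%), against 4.43% and 4.79% of all genes. Their median stood 0.87, 0.78, 0.39 and 1.02 log2 units above the controls in ML2x WD 1 to 4 and 0.50, 0.07, 0.94 and 1.01 above them in ML4x WD 1 to 4, so that ML4x WD 2 was the lowest, and without it the median difference was 0.04. None was called, and 1 higher (0.0481%) and 234 lower (11.3%) had an unadjusted p under 0.05. In irrigated leaves the same list had a median difference of -0.16 and the list of lower genes one of 0.16.

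Leaf-enriched genes, at least 8-fold higher in leaves than in roots of irrigated Persian lime, lay lower in droughted leaves on both rootstocks. Among 1940 such genes, 1419 were higher on the tetraploid (73.1%) and 515 lower (26.5%), against 51.8% and 48.1% of all genes. At an unadjusted edgeR p under 0.05, 133 were higher (6.86%) and 55 lower (2.84%), against 2.62% and 4.56%. The median log2 difference of the list was 0.33, and it was 0.04 in irrigated leaves. Their median was -0.48, -0.61, -0.76 and -0.79 in ML2x WD 1 to 4 and -0.09, -0.20, -0.59 and -0.50 in ML4x WD 1 to 4, relative to the controls. All of the 8 values were below 0, and the groups overlapped. Of the 3485 root-enriched genes, 1654 were measured in leaves. There 744 were higher on the tetraploid (45%) and 908 lower (54.9%), with a median of -0.13. At an unadjusted edgeR p under 0.05 there were 30 higher (1.81%) and 200 lower (12.1%), against 2.62% and 4.56% of all genes. The median was -0.01 without ML2x WD 1, -0.02 without ML2x WD 2 and -0.08 without ML4x WD 3. The filter on low counts used all leaf libraries, the 8 compared ones included. A gene scarce in most leaves could thus be kept through droughted libraries where it was high. The part of this in the root-enriched counts was not tested. 0 genes of either list were called.

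**Figure D4:**
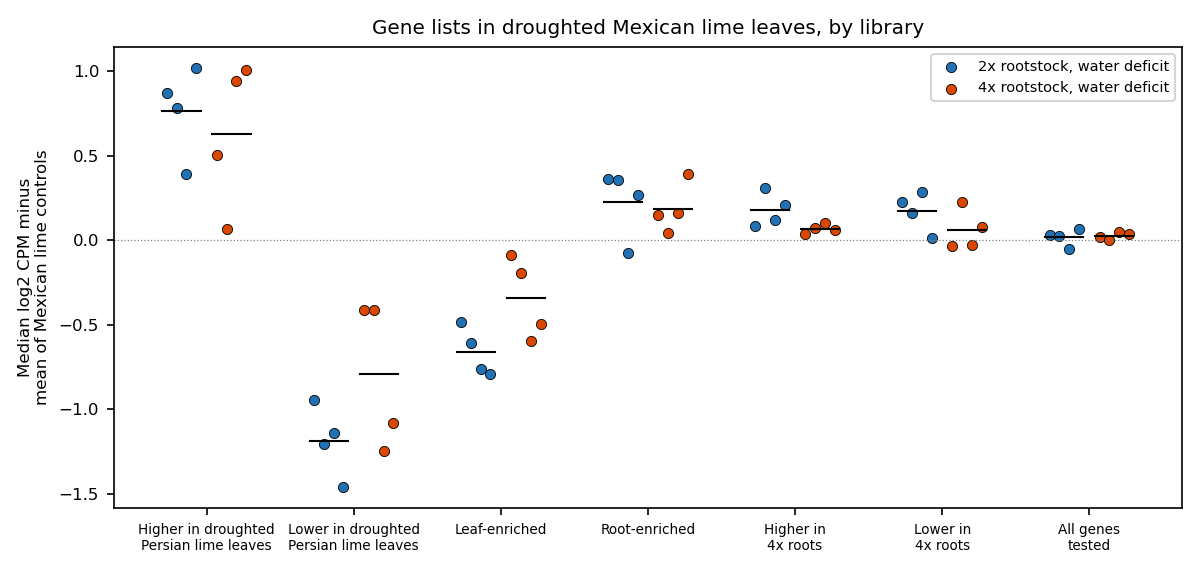
Median log2 CPM of each gene list relative to the mean of the 6 irrigated Mexican lime leaf libraries, 1 point for each droughted library and a bar at the mean of the 4. The genes lower in droughted Persian lime and the leaf-enriched genes lie below 0 in all 8 libraries and closest to 0 in ML4x WD 1 and 2, while the median of all genes tested lies between -0.05 and 0.07.

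Genes that differed with ploidy in the roots themselves had small median differences above the graft. Of 301 genes higher in tetraploid roots over both scions and treatments, 281 were measured in leaves. Of these, 108 were higher (38.4%, against 51.8% of all genes) and 172 lower in ML4x WD leaves (median log2 difference -0.11). Of 619 genes lower in tetraploid roots, 552 were measured, with 224 higher (40.6%) and 327 lower (median -0.13). Leaving out 1 library moved these medians between -0.15 (without ML4x WD 2) and -0.05 (without ML2x WD 2), and between -0.22 (without ML4x WD 2) and -0.05 (without ML4x WD 3). Without ML4x WD 4 the first was -0.07, and without ML2x WD 1 or ML2x WD 3 the second was -0.08 or -0.06. In irrigated leaves the medians were 0.07 and 0.03. Over 2-fold lower were 11.7% of the first list and 11.2% of the second, against 4.79% of all genes. Over 2-fold higher were 2.49% and 3.99%, against 4.43%. At an unadjusted edgeR p under 0.05, 12.1% and 9.96% were lower, against 4.56%, and 2.85% and 3.26% higher, against 2.62%. No gene of either list was called, and the filter on low counts described above decided which of their genes were measured. In the droughted roots of the Mexican lime trees 4 of 20452 genes were called higher on the tetraploid (0.0196%) and 0 lower, with 2764 at an unadjusted p under 0.05. Among them, Ciclev10020909m.g was 5.77 log2 units higher in tetraploid roots (edgeR adjusted p = 0.0258). Its fitted difference in the leaves was -0.40. The leaf differences of the 4 ranged from -0.77 to 1.51.

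Under the other scion the same contrast had a different outcome in this fit. In droughted Persian lime leaves edgeR called 250 genes (1.31%), 236 higher and 14 lower on the tetraploid, with 4454 at an unadjusted p under 0.05. The split depended on the tool and the libraries: DESeq2 called 932 higher and 356 lower, voom 5676 and 5605, and edgeR 3096 and 3273 once PL4x WD 2 was left out. Across 19140 genes, which are not independent replicates, the rootstock differences in Mexican and Persian lime correlated at r = -0.569. The contrasts share no library. The near-control libraries lie on opposite sides of them, ML4x WD 1 on the tetraploid and PL2x WD 1 on the diploid rootstock. Neither r nor the share of opposite signs given below was taken without these libraries, so their part in both was not tested. Tested against each other, the contrasts of the scions differed in 764 genes (3.99%), 80 of them with the Mexican lime difference above the Persian lime one (0.418%) and 684 below it (3.57%). In a replicate-block fit, and in a fit of the contrast's own groups, the 764 and the 250 both became 0. The fitted differences had opposite signs for 680 of the 684 and all of the 80, which follows in part from how these genes were picked, and for 13708 of all 19140 genes (71.6%). Among the 684 the median log2 difference was -0.82 in Mexican lime (interquartile range -1.58 to -0.49) and 1.60 in Persian lime (1.16 to 2.60), and among the 80 it was 0.97 and -1.46.

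The count of 764 depended on single trees. It fell to 0 without PL2x WD 1, PL2x WD 3 or PL4x WD 4, to 27 without PL4x WD 1, to 47 without ML4x WD 1, to 71 without ML2x WD 2, to 102 without ML4x WD 4, to 140 without ML2x WD 3, to 258 without PL4x WD 3, to 401 without ML2x WD 4 and to 432 without ML4x WD 2. It rose to 2269 without ML2x WD 1, to 2349 when PL2x WD 2 was left out and to 6371 when PL4x WD 2 was left out, and with both libraries near their controls left out it was 0. The 250 calls in Persian lime alone became 0 when PL2x WD 1, PL2x WD 3, PL4x WD 1 or PL4x WD 4 was left out. They became 19 on leaving out PL4x WD 3, 985 on leaving out PL2x WD 2 and 6369 on leaving out PL4x WD 2.

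**Figure D5:**
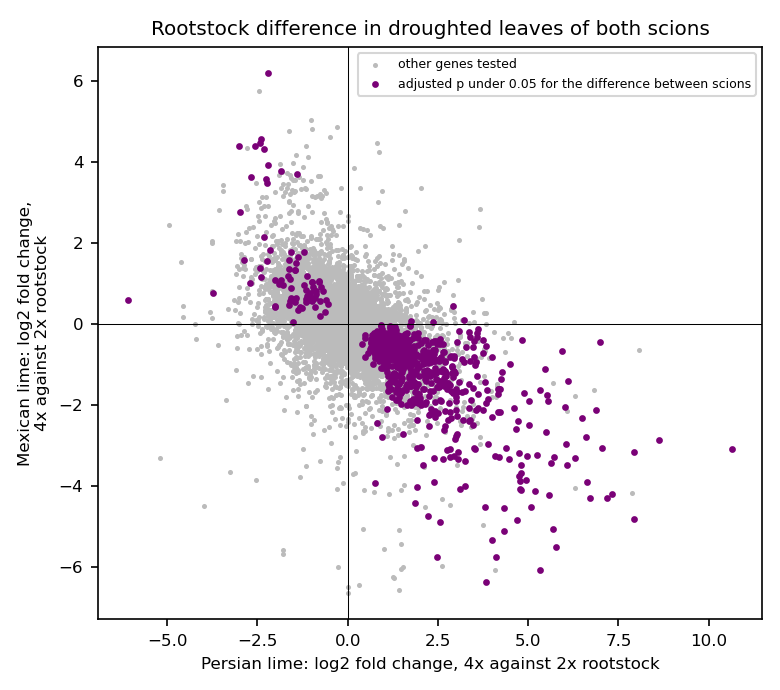
Each point is 1 of 19140 genes, placed by its fitted log2 fold change on the tetraploid against the diploid rootstock in droughted Persian lime leaves (horizontal) and Mexican lime leaves (vertical). Purple points are the 764 genes with an adjusted p under 0.05 for the difference between scions in the fit of all libraries, most of them in the lower right quadrant.

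Among genes with a mean of at least 1 CPM over the 8 libraries, the called differences of largest size in each direction between scions were set by few libraries. Ciclev10021785m.g was at 0.645, 0.740, 0.181 and 0.591 CPM in ML2x WD 1 to 4 and at 52.1, 0.729, 2.07 and 1.26 CPM in ML4x WD 1 to 4. In Persian lime it was at 28.3, 0.327 and 3.58 CPM in PL2x WD 1 to 3 and at 1.11, 4.68, 0.485 and 1.64 CPM in PL4x WD 1 to 4. The highest values were thus those of ML4x WD 1 and PL2x WD 1. ML4x WD 1 was above the irrigated Mexican lime means of 20.8 ± 15.3 (ML2x) and 16.5 ± 4.56 CPM (ML4x; SD, n = 3). PL2x WD 1 was above the irrigated Persian lime means of 17.2 ± 15.9 (PL2x, SD, n = 2) and 22.2 ± 9.88 CPM (PL4x, SD, n = 3). It lay within the irrigated range, below PL2x Ctrl 2 at 28.5 and PL4x Ctrl 1 at 32.7 CPM. The Mexican minus Persian lime difference was 6.99 ± 1.76 (log2, SE; edgeR adjusted p = 0.0352), and 3.68 without ML4x WD 1 (adjusted p = 0.141, edgeR). Ciclev10009963m.g had the same pattern, with 33.6 CPM in ML4x WD 1 and at most 1.57 CPM in the other 7 droughted Mexican lime libraries (difference 6.91 ± 1.97, edgeR adjusted p = 0.0495, lost without ML4x WD 1 at 0.183).

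Ciclev10021291m.g was at 0, 75.8, 0.181 and 1.62 CPM in ML2x WD 1 to 4 and at 0.169, 0, 1.15 and 1.22 CPM in ML4x WD 1 to 4. It had 2 counts in all 3 PL2x WD libraries together and stood at 16.3, 0.0821, 3.55 and 15.8 CPM in PL4x WD 1 to 4. The single high library in Mexican lime was ML2x WD 2, and the other 7 overlapped. The difference between scions was -12.74 ± 2.80 (log2, SE; edgeR adjusted p = 0.025), and -7.95 without ML2x WD 2 (adjusted p = 0.0637, edgeR); with so few counts in PL2x WD its size depends on the fit. Ciclev10029877m.g had 47.8 CPM in ML2x WD 2, at most 1.92 CPM in the other 7 droughted Mexican lime libraries and 2 counts in PL2x WD (difference -11.51 ± 2.73, edgeR adjusted p = 0.0344, and 0.0763 without ML2x WD 2).

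Of the 4 genes named first, Ciclev10008044m.g also passed the test between scions, its fitted difference being -1.56 ± 0.33 in Mexican lime and 1.14 ± 0.36 in Persian lime (log2, SE; difference -2.70 ± 0.49, edgeR adjusted p = 0.0199). In Persian lime it was at 18.7 ± 4.12 CPM in PL2x WD (n = 3) and 41.4 ± 20.6 CPM in PL4x WD (n = 4, SD). Ciclev10025446m.g passed as well (5.10 ± 1.39, edgeR adjusted p = 0.0436), with its highest values in ML4x WD 1 (104.7 CPM) and PL2x WD 1 (46.6 CPM). Ciclev10004332m.g and Ciclev10005230m.g did not pass (edgeR adjusted p = 0.113 and 0.0913). The count of 764 was 0 without PL2x WD 1, PL2x WD 3 or PL4x WD 4, and without both near-control libraries. It was also 0 with the replicate block and in the fit of the contrast's own groups. The calls of Ciclev10008044m.g and Ciclev10025446m.g were therefore lost in each of these. Without ML4x WD 1, ML2x WD 2 or PL4x WD 1, 0 genes were called with the Mexican lime difference above the Persian lime one. Ciclev10025446m.g thus lost its call there too. Calls of these genes under the remaining settings are not listed here.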

How the data were processed

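The authors deposited raw counts of reads per gene as whole numbers, not normalised. The submitters' processing notes name Trimmomatic and HTSeq. Per the labels' protocols, a stranded mRNA kit was used; aligner, genome build and strand setting were not given in the sources used here, so overlapping and near-identical genes may share reads. Replicate libraries came from separate trees. Groups were taken from the labels. Among the 8, no pair of libraries on the same rootstock agreed within sampling noise (mean chi-square per gene 42.8 to 339). Pairs of libraries from different rootstocks were not checked in this way. Their log2 CPM correlated at up to 0.987, against up to 0.969 within ML2x WD and 0.98 within ML4x WD.

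All 26 leaf libraries entered 1 fit with 8 groups in edgeR 4.0.16 (R 4.3.3): TMM, filterByExpr (19140 of 24533 genes kept), robust quasi-likelihood F test and Benjamini-Hochberg adjustment over all genes tested, called at 0.05. The typical coefficient of variation between trees was 0.38. Log2 CPM used a prior count of 2. Single values were tested by exact permutation over the 70 splits of 4 against 4. Alternatives were DESeq2 1.42.0, limma 3.58.1 voom with quality weights, DESeq2's size factors, no filter, a replicate block, fewer groups and libraries left out; leaving out both near-control libraries, and the share of variation between rootstocks, were chosen after seeing the data. The genes named are, among those with a mean of at least 1 CPM, up to 2 in each direction, the called genes of largest change or else those of smallest p. Ciclev10020909m.g, Ciclev10020171m.g and the count of genes without overlap were chosen after values were seen. The members and lists were chosen with earlier results of these data known.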

Additional observations from a re-analysis of the deposited data

Results flagged for a closer look

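Among 42 groups of 4 libraries examined, 6 held a library far from the other 3. The cut-off passes about 1 in 20 for independent, normally distributed values. All 6 were CPM on a linear scale, and the same libraries recur among the 42 groups, so that rate does not hold here. In ML4x WD, replicate 1 was at 104.7 CPM for Ciclev10025446m.g, at 52.15 CPM for Ciclev10021785m.g and at 33.64 CPM for Ciclev10009963m.g, and replicate 3 was at 4.244 CPM for Ciclev10005230m.g. In ML2x WD, replicate 2 was at 75.84 CPM for Ciclev10021291m.g and at 47.82 CPM for Ciclev10029877m.g. These genes were named for their small p or large change, so their groups are not a random draw.

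The rootstock difference under water deficit differed between the scions for 764 genes by edgeR's test, a count that was 0 without PL2x WD 1. Among the genes named, the Mexican minus Persian lime difference was 5.098 for Ciclev10025446m.g, -2.698 for Ciclev10008044m.g, 6.992 for Ciclev10021785m.g, 6.906 for Ciclev10009963m.g, -12.74 for Ciclev10021291m.g and -11.51 for Ciclev10029877m.g (log2).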

How the results depend on the processing

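The 0 calls between rootstocks in droughted Mexican lime leaves were also 0 under each other setting run, left-out libraries included, except DESeq2 (7, all lower). The 0 calls in irrigated leaves and for the difference between treatments were 0 throughout. The Persian lime count of 250 was 42 with DESeq2's size factors in edgeR, 124 without the filter, 0 in a fit of its own groups, 1288 by DESeq2, 11281 by voom and 0 without both near-control libraries. The count of 764 for the difference between scions was 485 (53 above, 432 below), 584, 0, 2168 (846 above, 1322 below), 9742 (4812 above, 4930 below) and 0 in the same order. Leaving out 1 library gave 0 to 6369 and 0 to 6371. Between ML4x and ML2x WD, deviations of same-numbered libraries from their group means correlated at 0.373, 0.0898, 0.0598 and 0.333, all positive. Those of different-numbered libraries correlated at -0.458 to 0.39, most of them negative. Whether the replicate numbers mark a pairing was not tested, and the labels do not say. With the replicate block the rootstock contrast gave 0 calls in Mexican lime, 0 in Persian lime and 0 for the difference between scions. The paired score and top-10 share differences gave exact permutation p = 0.375 and 0.125. The median of the genes lower in droughted Persian lime was 0.89 when chosen at 4-fold. Without 1 library, the score difference was -26.8 to -10.4 points, the top-10 share 1.77 to 3.89 points, the distance within groups -0.346 to -0.0589 log2 units and the share between rootstocks 15.0 to 30.3%. The list medians were -0.18 to 0.04 and 0.28 to 0.60 for the genes higher and lower in droughted Persian lime, 0.23 to 0.44 for the leaf-enriched genes, -0.17 to -0.01 for the root-enriched ones, and -0.15 to -0.05 and -0.22 to -0.05 for the genes higher and lower in tetraploid roots. For the genes named, 52 values under other settings lost the call, 94 kept their side of the threshold, 2 gained the call (by DESeq2) and 0 changed sign. The cause of these shifts was not tested. Precision was limited by 4 trees a group, with a median standard error of 0.33 log2 units.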
